A study of Mus musculus with 18 samples.

Results

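Inserts that gave much RNA without a spliced form were 496 of the 16461 DNA inserts counted by INSERT-seq in mouse embryonic stem cells. The level of an insert was log2 of its RNA minus log2 of its genomic DNA (gDNA), each in CPM (the reads of the insert scaled to the total insert reads of the library) with 0.5 CPM added. Members had no spliced form in the RNA table, a mean of 50 or more gDNA reads over the 9 gDNA libraries, and a mean level above 1.5 over the 3 cultures that received a non-targeting siRNA (siNT). Of 14057 inserts without a spliced form, 12703 reached the gDNA minimum, and the members were 3.90% of those. As the siNT levels chose the members, their siNT values are a description, and a comparison with the same siNT values carries the choice in it.

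The series placed a pool of inserts where the antisense RNA upstream of Oct4 is made, Oct4 being the product of Pou5f1 (GRCm38 chromosome 17, 35506032 to 35510777), and depleted WDR82 (gene Wdr82, chromosome 9, 106170925 to 106191706) or ZC3H4 (gene Zc3h4, chromosome 7, 16399583 to 16437696) with siRNA. Each of siNT, siWDR82 and siZC3H4 had 3 numbered replicates, called cultures here, with an RNA and a gDNA library each. Nothing in the labels says that replicates were grown separately, so p-values measure the spread between these samples, which may be technical. All cells had a CAST/129 hybrid background, female, and carried 3 changes on the 129 allele: Oct4C::TagBFP2, the library at Oct4ua157, and mKate2 at Oct4ua172. The siNT cells thus carried the library too. The labels give 30 nM siRNA, but 31 and 32 nM for siWDR82 replicates 2 and 3. The depletion itself was not analysed here, as the amplified locus holds neither target gene.

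WDR82 and ZC3H4 are the core of Restrictor, a nuclear complex that attenuates early elongation by RNA polymerase II and is best known for holding back noncoding transcripts such as upstream antisense RNAs. Splicing signals are known to protect a transcript from early termination, in part through the U1 small nuclear ribonucleoprotein, which binds the 5′ splice site. The inserts described here gave high RNA although no spliced form of them was counted. RNA over gDNA is a steady-state level per insert copy, and RNA made and RNA kept cannot be told apart in it.

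RNA libraries held 32173068 to 52840375 insert reads and gDNA libraries 4584881 to 11510602. The tables give each insert a number and neither sequence nor source gene, so no sequence is shown and members are described by number, level and reads. A member had a median of 514 gDNA reads per library (mean over 9 libraries, range 50.3 to 2731) and 27075 RNA reads summed over the siNT cultures. Its level had a median SD of 0.48 between the 3 siNT cultures, against 0.73 for the 12207 inserts of the same kind at or below the level cut. Median levels are given on the scale of library totals unless stated, on which changes of a set are relative to all insert RNA of the library.

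Members were high in siNT to different degrees. Their mean siNT level had a median of 1.84 and ran from 1.50 to 5.83, with the middle 50% of members between 1.65 and 2.16. By culture the member median was 2.01, 1.93 and 1.72 in siNT 1, 2 and 3, where all inserts with enough gDNA stood at -0.90, -0.82 and -0.83. Of the 496, 190 were above 1.5 in each siNT culture, 247 in 2 of them and 59 in a single culture. The member just inside the cut, sequence_05915, had 1.52, 1.30 and 1.68 in the siNT cultures. The insert just outside, sequence_03449, had 2.00, 1.40 and 1.10, so the cultures of inserts on either side of the cut overlap. Leaving out 1 siNT culture took 100, 80 and 55 members below the cut for siNT 1, 2 and 3, and 301 members stayed above it whichever was left out.

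Members were unevenly spread over insert numbers, a property the rule did not use. Inserts 1 to 4000 held 353 of them, which was 10.4% of the 3381 unspliced inserts there with enough gDNA. Inserts 4001 to 5500 held 75 (5.98%), and the share was 1.02%, 1.10% and 0.437% in 5501 to 9000, 9001 to 12000 and 12501 to 16461. Within inserts 1 to 4000 the share per 500 numbers ran from 9.09% to 13.6%, and then it was 0.962% in 5501 to 6000. In all, 86.3% of members but 36.5% of the unspliced inserts with enough gDNA were numbered 1 to 5500. What the number ranges stand for is not given in the tables. Within 1 to 4000, 15.9% of members had a neighbouring number that was also a member, against 17.1% of the other unspliced inserts, so members were not seen to sit in runs.

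Some members had almost no gDNA reads in siNT, so that their level rests on the denominator. In 45 members (9.07%) at least 1 siNT gDNA library held under 20 reads, and these passed the gDNA minimum through other libraries. They made up 41.2% of the 68 members numbered above 5500 but 3.97% of the 428 below. From siNT to siWDR82 their RNA had a median log2 difference of 0.0030 and their gDNA of 1.20, and to siZC3H4 the values were -0.17 for RNA and 2.21 for gDNA. In the other 451 members the RNA part was the larger, at -0.56 for RNA and 0.14 for gDNA with siWDR82 and -0.37 and 0.06 with siZC3H4. The clearest case was sequence_16103, the next highest in siNT level after sequence_00580 and sequence_01137. In siNT it had 1, 0 and 0 gDNA reads beside 1282, 556 and 559 RNA reads. In siWDR82 1, 2 and 3 it had 1, 78 and 107 gDNA reads beside 0, 991 and 1955 RNA reads, so siWDR82 1 gives no usable level either. In siZC3H4 1, 2 and 3 it had 151, 66 and 132 gDNA reads beside 163, 319 and 1742 RNA reads. Its fitted log2 change was -8.42 with siWDR82 (edgeR quasi-likelihood test, adjusted p = 0.161) and -9.37 with siZC3H4 (edgeR, adjusted p = 0.191). With the culture as a block, which pairs its RNA with its gDNA, both passed (edgeR adjusted p = 0.0242 and 0.0387), as they did with DESeq2 (adjusted p = 0.0422 and 0.0235), while the siNT level rested on 1 gDNA read in all.

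The 2 members of highest level, sequence_00580 and sequence_01137, were also among the inserts with most RNA reads of the whole pool. sequence_00580 took the highest share of RNA reads of any insert in each siNT culture, with 0.612%, 0.923% and 3.78% of the library. The siNT cultures had levels of 4.98, 5.29 and 7.23, the siWDR82 cultures 6.65, 6.45 and 3.96, and the siZC3H4 cultures 2.87, 3.94 and 3.35. sequence_01137 had 5.12, 4.88 and 6.11 in siNT, 6.18, 6.58 and 4.32 in the siWDR82 cultures and 3.31, 3.24 and 3.67 in the siZC3H4 cultures. Both were high in siNT 3 and in siWDR82 1 and 2, and in both all 3 siZC3H4 cultures lay below all siNT and siWDR82 cultures. They were well covered, with a mean of 1997 and 1755 gDNA reads. Neither change passed with siZC3H4 (log2 change -3.21, SE 0.81, edgeR adjusted p = 0.111, and -2.51, SE 0.96, edgeR adjusted p = 0.371). The change of sequence_00580 passed without siNT replicate 1, at -3.49 (edgeR adjusted p = 0.0376), and with DESeq2, at -3.22 (adjusted p = 0.0312). With siWDR82 the changes were -0.55 and 0.07 (edgeR adjusted p = 0.868 and 0.992). As the siNT levels picked these 2 inserts, their changes against siNT carry the choice.

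These 2 inserts set much of the spread in the RNA that members gave. Members supplied 14.6%, 15.5% and 19.4% of insert RNA reads in siNT 1, 2 and 3 from 3.32%, 3.67% and 3.90% of gDNA reads. Without sequence_00580 and sequence_01137 the RNA share was 13.4 ± 0.68% in siNT, 9.06 ± 0.19% in the siWDR82 cultures and 10.3 ± 0.14% in the siZC3H4 cultures (SD, n = 3). On that count all 6 knockdown cultures lay below all 3 siNT cultures, at 8.85% to 10.4% against 12.6% to 13.9%. With the 2 included, siWDR82 had 12.8%, 12.9% and 9.83%, and siZC3H4 10.7%, 10.6% and 10.8%. The gDNA share of all members was 3.89 ± 0.090% with siWDR82 and 3.80 ± 0.18% with siZC3H4, against 3.63 ± 0.29% in siNT, so the gDNA shares overlapped. The RNA share in siNT was raised by the choice itself.

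Set against the siNT values that chose them, members were lower in both knockdowns. The member median was 1.05, 1.28 and 1.23 in siWDR82 1, 2 and 3 and 1.42, 1.44 and 1.38 in siZC3H4 1, 2 and 3, below each of the siNT medians. The median difference per member was -0.74 with siWDR82 (455 of 496 members below 0) and -0.46 with siZC3H4 (432 below 0). The other unspliced inserts had medians of 0.51 and 0.47. Of all inserts with enough gDNA, 35.7% and 34.3% were below 0. In 194 members (39.1%) all siWDR82 cultures lay below all siNT cultures and in 4 above, where the shares of all tested inserts were 6.87% and 20.1%. With siZC3H4 the counts were 121 (24.4%) below and 1 above, where the shares were 5.18% and 18.1%. Nothing is read from these counts, since the siNT values chose the members. The difference was -0.65 with siWDR82 and -0.34 with siZC3H4 for the 125 members whose siNT SD was at most 0.3, and -1.002 and -1.12 for the 90 whose SD was above 1. Members above the cut in each siNT culture had -0.76 and -0.47, and those above it in a single culture -0.87 and -0.47.

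The return towards lower levels that comes with the choice was measured between siNT cultures. Unspliced inserts with enough gDNA were chosen by a level above 1.5 in 1 siNT culture, for each siNT culture in turn. This gave 794, 719 and 610 inserts, of which 392, 399 and 332 were members. In the other siNT cultures, which had the same treatment, all chosen inserts together stood lower by a median difference of -0.73, -0.61 and -0.57. Between 23.9% and 31.1% of them were above 1.5 in both other siNT cultures. As medians of each part, gDNA was higher by 0.48, 0.30 and 0.46 in the other siNT cultures, and RNA differed by -0.28, -0.32 and -0.10. The gDNA part was the larger for inserts chosen in siNT 1 and 3, and the parts were about equal for siNT 2.

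Measured against the siNT cultures that did not choose them, unspliced high-RNA inserts of all numbers pooled were still lower with siWDR82. In the number ranges above 5500 that gave a value, the difference was no larger than its spread, as given below. The pooled median difference per siWDR82 culture, averaged over the 3 choices, was -0.48, -0.33 and -0.37, or -0.40 ± 0.077 (SD, n = 3). This SD is taken over knockdown cultures after that average, so it leaves out the spread of the siNT reference. The same holds for the differences by level, class and number range below. By choice, the difference was -0.38, -0.29 and -0.35 for siWDR82 1, 2 and 3 when siNT 1 chose. It was -0.53, -0.35 and -0.38 when siNT 2 chose, and -0.53, -0.36 and -0.39 when siNT 3 chose. In the same inserts the siNT cultures not used for the choice differed from each other by 0.18, 0.19 and -0.14, so all 9 values for siWDR82 were larger than the distance between siNT cultures. By insert, 30.9%, 29.9% and 31.5% of the inserts chosen in siNT 1, 2 and 3 had all 3 siWDR82 cultures below both other siNT cultures, where the share of all inserts with enough gDNA was 12.4%, 10.3% and 11.2%. All 3 siWDR82 cultures lay above both other siNT cultures in 8.19%, 6.68% and 6.89% of the chosen inserts, against 28.4%, 27.7% and 27.6% of all. Over the choices, 70.4% of inserts had a siWDR82 mean below the siNT mean. Of all inserts with enough gDNA, 35.7% had a siWDR82 mean below the mean of all 3 siNT cultures.

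With siZC3H4 the difference was nearer 0, and 6 of its 9 values were larger than the distance between the siNT cultures not used for the choice. It was -0.26, -0.19 and -0.26 in siZC3H4 1, 2 and 3, or -0.24 ± 0.043 (SD, n = 3), and -0.15 without siNT replicate 2. When siNT 1 chose, it was -0.09, 0.01 and -0.21, within the distance between the other siNT cultures for 2 of the 3 values. When siNT 2 chose, it was -0.29, -0.19 and -0.29, and when siNT 3 chose, -0.39, -0.38 and -0.30. Over the choices, 64.9% of inserts had a siZC3H4 mean below the siNT mean. Of all inserts with enough gDNA, 34.3% had a siZC3H4 mean below the mean of all 3 siNT cultures. The share of chosen inserts with all siZC3H4 cultures below both other siNT cultures was 15.5%, 19.9% and 24.1% for siNT 1, 2 and 3, against 10.8%, 8.12% and 8.92% of all inserts with enough gDNA. They lay above in 9.07%, 5.42% and 5.25%, against 27.2%, 25.8% and 25.6% of all. The size of the siZC3H4 difference thus moved with the siNT culture that chose the inserts.

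The difference followed the level across all unspliced inserts, with no step at 1.5. In bins of the level in the choosing culture, inserts at -3 or less had a difference of 1.12 ± 0.082 with siWDR82 and 0.94 ± 0.029 with siZC3H4 (SD, n = 3 for all bins). Those between 0 and 0.5 had 0.14 ± 0.032 and 0.22 ± 0.062, and those between 1 and 1.5 had -0.20 ± 0.018 and -0.07 ± 0.053. Above the cut the values were -0.37 ± 0.055 and -0.17 ± 0.058 between 1.5 and 2, -0.45 ± 0.11 and -0.23 ± 0.059 between 2 and 2.5, and -0.46 ± 0.069 and -0.40 ± 0.036 between 2.5 and 3. In the 49 to 67 inserts above 3 they were -0.33 ± 0.23 with siWDR82 and -0.64 ± 0.18 with siZC3H4.

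Inserts with a spliced form had lower differences than unspliced ones of the same level in the choosing culture. Chosen in the same way (396 to 475 inserts), they had a difference of -0.89 ± 0.11 with siWDR82 and -0.77 ± 0.13 with siZC3H4 (SD, n = 3). Part of this was gDNA. With siZC3H4, for choice by siNT 1, 2 and 3, median spliced RNA differed by -0.48, -0.58 and -0.45 and gDNA by 0.13, 0.27 and 0.42. Unspliced RNA differed by -0.22, -0.18 and -0.20 and gDNA by -0.17, 0.07 and 0.13. With siWDR82 the spliced parts were -0.83, -0.88 and -0.72 for RNA and 0.07, 0.15 and 0.12 for gDNA. Within strata of the choosing level, spliced minus unspliced was -0.46, -0.55 and -0.37 in siWDR82 1, 2 and 3 and -0.44, -0.45 and -0.29 in siZC3H4 1, 2 and 3. The means were -0.46 ± 0.093 and -0.40 ± 0.090, and without siNT replicate 3 the siWDR82 mean was -0.25. Between 1.5 and 2, for example, spliced inserts had -0.83 ± 0.083 and -0.50 ± 0.031. The match is on the choosing culture only. In the other siNT cultures the spliced inserts of this bin differed from it by -0.21 and the unspliced ones by -0.44. Above 3 the values were -1.16 and -2.06. Spliced inserts of these bins thus fell back less in the siNT cultures used as reference, and what this adds to the gap was not tested. A gap was also seen below the cut, at -0.32 ± 0.048 against 0.14 ± 0.032 with siWDR82 between 0 and 0.5, so it was not particular to high levels. The siNT cultures not used for the choice differed by -0.11, -0.38 and -0.46 in the spliced inserts, further than in the unspliced ones for the choices by siNT 2 and 3. With the unspliced reads of these inserts alone, chosen on their own level, the gap was -0.18 ± 0.041 and -0.21 ± 0.16.

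The gap between spliced and unspliced high-RNA inserts had different sizes in different number ranges. Within inserts 1 to 4000 (349 to 555 unspliced and 85 to 102 spliced inserts chosen), unspliced inserts had -0.49 ± 0.044 with siWDR82 and -0.25 ± 0.083 with siZC3H4, and spliced ones -0.68 ± 0.056 and -0.38 ± 0.049. Unspliced inserts had -0.38 ± 0.016 and -0.17 ± 0.014 in 4001 to 5500, -0.05 ± 0.18 and -0.26 ± 0.23 in 5501 to 12000, and -0.18 ± 0.22 and -0.39 ± 0.26 in 12501 to 16461. Above 5500 the siWDR82 difference of unspliced inserts was thus no larger than its spread. The matched gap in inserts 1 to 4000 was -0.18 ± 0.021 and -0.12 ± 0.062. In 4001 to 5500 it was -0.58 ± 0.10 and -0.43 ± 0.096, with 23 to 30 spliced inserts. In 5501 to 12000 it was -0.50 ± 0.30 and -0.40 ± 0.40, with 18 to 32. In 12501 to 16461 it was -0.89 ± 0.26 and -0.85 ± 0.16, with 36 to 45 unspliced inserts. Inserts 12001 to 12500 held 122 to 139 of the chosen spliced inserts but at most 2 unspliced ones, so no gap could be taken there. In inserts 1 to 4000, where most members lie, the gap was thus the smallest of the 4 ranges that gave one. The difference between ranges was not tested. The SDs, over knockdown cultures after the average over choices, leave out the spread of the siNT reference.

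Choosing by the knockdown cultures gave values near 0 for unspliced inserts. Unspliced inserts above 1.5 in siWDR82 1, 2 or 3 (402, 488 and 435) had a median of 1.14, 1.10 and 1.14 in the other siWDR82 cultures and of 1.02, 1.17 and 1.18 in siNT. The difference, siNT minus the other siWDR82 cultures, was -0.02 ± 0.050 (SD over 3 choices). With siZC3H4 (529, 607 and 524 inserts) it was 0.06 ± 0.030, and -0.01 without siNT replicate 1. Spliced inserts chosen in this way were higher in siNT, by 0.86 ± 0.054 with siWDR82 and 0.69 ± 0.15 with siZC3H4. With a siNT culture left out, the unspliced values ran from -0.04 to -0.00089 with siWDR82 and up to 0.13 with siZC3H4. The classes were not matched by level here. Spliced inserts had medians of 1.78, 1.87 and 1.59 in the other siWDR82 cultures, above those of the unspliced inserts. The classes thus differed in level as well as in this difference.

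On the scale of spike-in RNA, which is added per sample, members did not stand lower. Their median level was 1.27, 1.80 and 1.52 in siNT, 2.22, 1.37 and 1.74 in the siWDR82 cultures and 0.65, 1.89 and 2.25 in the siZC3H4 cultures. The groups overlapped, and the culture siZC3H4 1 was the lowest of the 9. For inserts chosen by 1 siNT culture the difference was 0.54 ± 0.46 with siWDR82 and 0.30 ± 0.85 with siZC3H4 (SD, n = 3). The median of all inserts with enough gDNA stood at -1.61, -0.94 and -1.03 in siNT, 0.67, -0.38 and 0.07 in the siWDR82 cultures and -1.26, 0.02 and 0.38 in the siZC3H4 cultures. Matched to level, spliced minus unspliced was -0.46 and -0.39 on this scale, but a rescaling of whole libraries nearly cancels in that gap. Differences below 0 in the other paragraphs are therefore relative to the insert RNA of the library. Relative to the median of all inserts, the difference for inserts chosen in this way was -0.76 ± 0.065 with siWDR82 and -0.59 ± 0.012 with siZC3H4.

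Few members passed the main test on their own, which does not pair the RNA and gDNA of a culture. More fell with siWDR82 in the fit that pairs them, as given below. All 496 were among the 15364 inserts tested. Against siNT, 4 members fell and 0 rose with siWDR82 (edgeR, adjusted p under 0.05), where 0.111% of all tested inserts fell and 0.586% rose. With siZC3H4 1 member fell and 0 rose, where 0.026% fell and 0.325% rose. These counts use the siNT values that chose the members. At an unadjusted p under 0.05, 187 members were lower and 0 higher with siWDR82 (background 5.67% and 7.08%), and 105 and 0 with siZC3H4 (background 3.53% and 5.86%). In the fit that blocks on culture, edgeR called 82 falls of members for siWDR82 and 2 for siZC3H4, where 1.68% and 0.0716% of all tested inserts fell, and 0 rose, where 1.44% and 0.325% rose. DESeq2 gave 51 and 10 falls (background 1.18% and 0.417%) and 0 rises (background 1.9% and 1.3%). limma called 0 members at an adjusted p under 0.05, and at an unadjusted p under 0.05 it had 155 lower and 2 higher with siWDR82 (background 5.19% and 16.6%) and 95 and 0 with siZC3H4 (background 4.41% and 14.9%). Calls with siWDR82 numbered 2, 0 and 0 without siWDR82 replicates 1, 2 and 3, where 0.013%, 0% and 0.0065% of all tested inserts fell. They numbered 7 and 10 without siNT replicates 1 and 3, where 0.371% and 0.176% of all fell, and 2 without siZC3H4 replicate 1 or 2, where 0.0523% and 0.0848% fell. With siZC3H4, 0 members were called without siZC3H4 replicate 1, 2 or 3, siNT replicate 2 or siWDR82 replicate 3. In these fits 0% to 0.0325% of all tested inserts fell, also at an adjusted p under 0.05. Without siNT replicate 1, 10 members were called, where falls were also more frequent in the whole pool, at 0.658%.

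The 2 largest called falls were seen in well-covered inserts. Both were picked as the largest falls, and the siNT values that chose them as members are also in the test. Their changes and p-values against siNT thus carry the choice and are given as a description. sequence_03812 had levels of 2.77, 2.98 and 3.48 in siNT, 1.51, 1.17 and 1.03 in the siWDR82 cultures and 2.03, 2.15 and 2.47 in the siZC3H4 cultures. Its RNA counts were 26190, 24004 and 21189 in siNT and 10407, 6278 and 5813 with siWDR82, from gDNA counts of 987, 824 and 471 and of 698, 364 and 325. The siWDR82 and siNT cultures did not overlap, and the siZC3H4 cultures lay between them. The log2 change with siWDR82 was -2.03 (SE 0.39, edgeR adjusted p = 0.0153), and with siZC3H4 it was -1.10 (SE 0.38, edgeR adjusted p = 0.342). It did not pass without siWDR82 replicate 2 or 3 (edgeR adjusted p = 0.0916 and 0.0967), with limma (adjusted p = 0.0781) and with spike-in scaling (-0.65, edgeR adjusted p = 0.511).

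sequence_00289 had 2.65, 2.79 and 1.67 in siNT, 0.39, 0.86 and 0.52 in the siWDR82 cultures and 1.65, 1.66 and 0.65 in the siZC3H4 cultures. siNT 3 was the lowest of its siNT cultures, and its gDNA count there was 1168 against 565 and 580. The siWDR82 and the siZC3H4 cultures all lay below the siNT cultures, and siZC3H4 3 lay among the siWDR82 cultures. Its log2 change with siWDR82 was -1.999 (SE 0.46, edgeR adjusted p = 0.0484). It did not pass in 13 of 16 alternatives, though it passed with the culture as a block (-2.07, edgeR adjusted p = 0.0173). The other two called members had log2 changes of -1.45 and -1.79 with siWDR82 (edgeR adjusted p = 0.0153 and 0.0395), and the first of them was also the siZC3H4 call (-1.28, edgeR adjusted p = 0.0459).

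The members of smallest spread stood at nearly the same level in all 9 cultures. sequence_05266 had the smallest SD over the 9 cultures, 0.14, with 1.52, 1.57 and 1.53 in siNT, 1.42, 1.65 and 1.66 in the siWDR82 cultures and 1.35, 1.35 and 1.75 in the siZC3H4 cultures. It was also the member with most gDNA, at 2731 reads. sequence_04770, at an SD of 0.17, had 1.70, 1.72 and 1.73 in siNT, 1.70, 1.50 and 1.65 in the siWDR82 cultures and 1.18, 1.59 and 1.67 in the siZC3H4 cultures. Both were picked by this SD, which is given as a description.

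The rule used no knockdown RNA, and knockdown gDNA only in the read minimum, so members could be compared between the knockdowns without the level choice in the contrast. Their median level was higher in each siZC3H4 culture (1.38 to 1.44) than in any siWDR82 culture (1.05 to 1.28), where all inserts with enough gDNA overlapped at -0.51 to -0.42 and -0.48 to -0.42. The median difference per member, siZC3H4 minus siWDR82, was 0.22, with 344 of 496 members (69.4%) above 0. For all inserts with enough gDNA it was -0.01, with 49.2% above 0. It was 0.25 for members numbered 1 to 5500 and -0.37 for the 68 above, of which 41.2% had a siNT gDNA library under 20 reads. The fitted median was 0.23, and from 0.19 to 0.26 with any one culture left out, but -0.07 with spike-in scaling, where the median of all tested inserts was -0.31. In 74 members (14.9%) all siZC3H4 cultures lay above all siWDR82 cultures, against 7.04% of tested inserts, and in 28 (5.65%) they lay below, against 7.5%. For single members the test called 0 (edgeR, background 0% in either direction), with 14 higher and 5 lower at an unadjusted p under 0.05, where the background was 1.13% and 0.775%. DESeq2 also called 0 members (background 0.117% higher and 0.0911% lower), as did limma and the culture block (background 0% in either direction). At an unadjusted p under 0.05 the edgeR culture block had 50 members higher and 8 lower, beside 463 and 213 of all 15364 inserts tested. limma had 36 and 13, beside 450 and 389, and DESeq2 had 18 and 9, beside 203 and 166. The member of lowest p was sequence_00580, at -2.66 (SE 0.80, edgeR adjusted p = 1.00), whose siZC3H4 cultures lay below its siWDR82 cultures, against the direction of the member median.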

How the data were processed

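The authors deposited raw read counts for 9 RNA and 9 gDNA libraries, per insert, spliced form and spike-in, not normalized, per the file headers and values. The submitters' processing notes name cutadapt 1.14, Bowtie2 2.3.4.3, STAR, SAMtools and build mm10. The step that each tool served is not stated. Per the labels' protocols the libraries are PCR amplicons, with no molecular identifiers named, so reads are not independent molecules.

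Unspliced and spliced reads of an insert were added as its RNA. Levels were computed per culture in Python 3.11.15. Quasi-likelihood tests from edgeR 4.0.16, run in R 4.3.3, were made on all inserts with on average 20 or more gDNA reads and 5 or more RNA reads, with 6 group means and TMM factors within RNA and within gDNA. They compared RNA over gDNA between siRNAs, with Benjamini-Hochberg adjustment over all inserts. The RNA and gDNA libraries of one siRNA and number deviated together in all 9 cultures (r across inserts from 0.29 to 0.47), so counts from the fit with the culture as a block are given too. Every pair of replicates differed beyond sampling noise (lowest chi-square per degree of freedom 32.1). Alternatives used DESeq2 1.42.0, limma 3.58.1, other scalings, filters and cuts, and each culture left out. Scripts were tested on simulated data.

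The members, lists and number ranges were chosen with earlier results of these data known. Named members are the 3 of highest siNT level above the cut in each siNT culture, the 2 largest called falls and rises (no rise was called) whose cultures did not overlap, the inserts on each side of the cut, the lowest p between knockdowns and the 2 of smallest SD. No p was computed over the member list.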

Additional observations from a re-analysis of the deposited data

How the results depend on the processing

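The difference of unspliced high-RNA inserts with one-culture choice stayed below 0 in 22 of 23 alternatives for either siRNA, and was above 0 with spike-in scaling (0.54 with siWDR82 and 0.30 with siZC3H4). For siWDR82 and siZC3H4 it was -0.67 and -0.49 with TMM, -0.76 and -0.59 relative to the median of all inserts, -0.75 and -0.50 with choice by all 3 siNT cultures, and -0.30 and -0.15 with a cut of 1. It was -0.33 with a cut of 2 (siZC3H4) and -0.49 in inserts 1 to 4000 (siWDR82). With a culture left out the difference ran from -0.47 to -0.29 and from -0.28 to -0.15. Leaving out a culture of the other knockdown could alter it only through the gDNA minimum. The choice by all 3 siNT cultures, counted among these alternatives, takes the same siNT values as reference, so its value carries the choice.

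Spliced minus unspliced, matched by the level in the choosing culture, stayed below 0 in 24 of 24 alternatives. Among these, scaling to spike-in reads, TMM and the median of all inserts rescale whole libraries, which nearly cancels between the classes. Leaving out a culture of the other knockdown acts only through the gDNA minimum. These alternatives could thus hardly move the gap and are no check on it. For siWDR82 and siZC3H4 the gap was -0.36 and -0.24 with gDNA averaged over 9 libraries, -0.19 and -0.24 with choice by all 3 siNT cultures, -0.18 and -0.21 with unspliced reads alone, -0.18 and -0.12 in inserts 1 to 4000, and -0.35 and -0.25 with every gDNA library at 50 reads. It was -0.30 with choice by 2 siNT cultures (siWDR82) and -0.30 with a gDNA minimum of 200 (siZC3H4). With a culture left out it ran from -0.51 to -0.25 and from -0.46 to -0.32. The limits on inserts 1 to 4000 and on gDNA in every library were added after seeing the data. The choice by all 3 siNT cultures carries the choice in the differences of both classes.

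Choice by knockdown cultures gave -0.10 with a cut of 2 (siWDR82), and for siZC3H4 -0.024 with a cut of 1, 0.098 with a gDNA minimum of 200, and -0.013 to 0.13 with a siNT culture left out. The set held 1130 inserts at a cut of 1 and 167 at a cut of 2.

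Members called, all of them falls, numbered 1 and 0 for siWDR82 and siZC3H4 with library totals (0.026% and 0.013% of all tested inserts fell), 0 and 0 with spike-in scaling (0.0195% and 0.00651%), 51 and 10 with DESeq2 (1.18% and 0.417%), and 0 and 0 with limma (0% and 0%). Under a replicate block that pairs the RNA of each culture with its gDNA, they numbered 82 and 2 (1.68% and 0.0716%). With the replicate number as a block across siRNAs, whose samples share only a number (r -0.01 to 0.15), they were 4 and 0 (0.0976% and 0.0195%). With no count minimum 3 and 0 were called (0.0983% and 0.0184%). With a culture left out they ran from 0 to 10 for either siRNA, and the share of all inserts that fell from 0% to 0.371% and from 0% to 0.658%. The median fitted change of all inserts was 0.34 (siWDR82) and 0.32 (siZC3H4) on library totals, and TMM took both to 0.06.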
